A study of Mus musculus with 14 samples.

Results

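The JAK kinases and STAT factors were described at the transcript level in spleen T cells of leukemic mice. The 9 genes chosen by symbol were the kinases Jak1, Jak2, Jak3 and Tyk2 and the factors Stat3, Stat4, Stat5a, Stat5b and Stat6, out of 24091 genes in the counts table, and all 9 passed the filter on low counts that left 12248 genes for testing. All mice carried the SCLtTA/BCR-ABL transgene pair on a C57BL/6j background and were 6 to 10 weeks old. BCR-ABL had been switched on in all of them for 3 weeks by withdrawal of tetracycline. In the CP CML group (chronic phase, Mir142+/+BCR-ABL, 8 mice) the Mir142 gene was intact, and in the BC CML group (blast crisis, Mir142-/-BCR-ABL, 6 mice) it was deleted. From each mouse 200000 sorted T cells gave 1 RNA-seq library. The deletion was present in every cell of the animal, the transactivator was driven by SCL (Tal1) regulatory sequence, and no mice without BCR-ABL were part of these libraries, so a change in the T cells cannot be told apart from a change in their surroundings. The mouse names of the 2 groups carry different number prefixes, whose meaning the labels do not give. Whatever the prefixes mark cannot be told apart from genotype.

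JAK kinases sit in the cytoplasm on the tails of cytokine receptors. When a cytokine brings receptor chains together, the kinases phosphorylate each other, the receptor and then a STAT factor, which pairs up, enters the nucleus and binds DNA at gamma-activated sites. In T cells, the common gamma chain cytokines such as IL-2, IL-7 and IL-15 signal through Jak1 and Jak3 to the STAT5 proteins, IL-12 through Jak2 and Tyk2 to STAT4, IL-4 through Jak1 and Jak3 to STAT6, and IL-6 through Jak1 largely to STAT3. The activity of the pathway lies in phosphorylation, which RNA-seq does not measure.

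The deleted gene gives 2 mature miRNAs. Their RefSeq sequences (GRCm38.p6) are shown because the groups differ in them, with the seed, bases 2 to 8, in capitals. The -5p arm lies at chr11:87756867-87756887 and the -3p arm at chr11:87756903-87756925, both on the plus strand.
mmu-miR-142a-5p: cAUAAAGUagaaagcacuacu
mmu-miR-142a-3p: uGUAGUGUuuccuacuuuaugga
Reads of Mir142 numbered between 302 and 650 in the CP CML mice and 0 in every BC CML mouse, as the labels state. The longest 3′UTR of each of the 9 genes (GENCODE vM21, on the same mm10 build) was searched for the sites that pair with these seeds. The -3p arm had no match in any of the 9, against 12.1% of 11509 tested genes with a 3′UTR. The 3′UTRs of Jak1, Stat3 and Stat5a each held a 7-base site for the -5p arm, and 23.5% of the 11509 genes held a site for it. In Stat3 all 7 bases pair with the seed. In Jak1 and Stat5a 6 bases pair with it, and the last base of the site is an A that faces the first base of the miRNA without pairing. No gene of the 9 held the 8-base match, ACTTTATA for the -5p arm and ACACTACA for the -3p arm. The 3 sites are shown with their surroundings on the mRNA strand, the 7 bases of the site in capitals.
Jak1, chr4:101152380-101152407, minus strand: ctttgtttactCTTTATAcaataaacat
Stat3, chr11:100885125-100885152, minus strand: aaccaacaaaaACTTTATtcaaaaacac
Stat5a, chr11:100884386-100884413, plus strand: tcttagtgaccCTTTATAcctttgtgta
The match of Jak1 covered bases 1099 to 1105 of a 3′UTR of 1128 bases, that of Stat3 bases 3658 to 3664 of 3701, and that of Stat5a bases 401 to 407 of 1173. The 3′UTRs of Stat4 and Stat5b, of 253 and 2365 bases, held no match to either arm. The Stat3 match lies outside the Stat3 span listed with the counts and within the span of Stat5a on the opposite strand, since the 3′UTR searched runs past the listed span. A match is a stretch of letters and was not tested for binding.

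Libraries held between 15703702 and 19914531 counted reads in CP CML and between 16145537 and 19399720 in BC CML. T cell identity genes summed to between 3415 and 3865 CPM (reads per 1000000 counted reads, scaled by TMM) in CP CML and between 3773 and 4222 in BC CML, and 10 of the 13 listed were analysed. Naive, effector and memory, myeloid, NK cell and basophil, mast and progenitor marker sums did not overlap between the groups, and those of T cell identity, B cell and erythroid and megakaryocyte markers did. The 7 naive T cell markers summed to between 4890 and 6238 CPM in CP CML and between 2683 and 3852 in BC CML, and the 11 effector and memory markers to between 711 and 887 and between 1504 and 1872. The 14 myeloid markers summed to between 176 and 563 CPM against between 964 and 1719. Of these 12 were higher, while Csf1r and Cebpa did not pass. Ly6c2 had the highest mean of them, 86.6 CPM in CP CML and 402 CPM in BC CML. The 8 NK cell markers, of which Klra4 was at 0 in every library, summed to between 105 and 148 against between 330 and 489. Whether the reads of these lists came from T cells or from other cells was not tested. The 8 B cell markers summed to between 59.3 and 178 CPM against between 104 and 513. Basophil, mast and progenitor markers summed to between 5.30 and 12.7 CPM against between 19.8 and 53.6, where Kit and Cpa3 were higher and the other 3 tested, Mcpt8, Prss34 and Gata2, did not pass, and the mean log2 level of the list overlapped, and erythroid and megakaryocyte markers to between 20.9 and 68.1 against between 44.4 and 73.6. Only the naive and myeloid scores, each the mean log2 level of its list, were used as covariates. The naive score was almost collinear with the group (r = -0.954 over the 14 mice), so fits with it cannot separate the score from the group. The myeloid score also went with the group (r = 0.810). The part of the other shifts in the results was not tested. In bulk RNA fewer cells of a type and less RNA per cell cannot be told apart.

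Among the 9 genes, Stat4 was higher and Stat5b lower in BC CML, and these were the 2 genes whose mice did not overlap between the groups. Jak3, Stat3 and Stat6 were lower by small amounts that passed the test narrowly. Jak1, Jak2, Tyk2 and Stat5a did not pass. In total, 5 of the 9 genes (55.6%) passed an adjusted p of 0.05 in edgeR's quasi-likelihood test, 1 higher and 4 lower, and 65.2% of all tested genes did so, 32.6% higher and 32.7% lower. Over the 14 fits that each left out a mouse, the number of the 9 that were lower ran from 1 to 4, and 1 was higher in every fit. Groups did not overlap for 2 of the 9 (22.2%) and for 36.9% of all tested genes, 19.3% higher and 17.6% lower. Both shares lay below those over all tested genes. Their median log2 fold change was -0.01, and that of all tested genes was -0.01. Their median absolute log2 fold change was 0.105, and that of all tested genes 0.28. Even Stat4 was exceeded in absolute log2 fold change by 31.7% of tested genes.

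**Figure D1:**
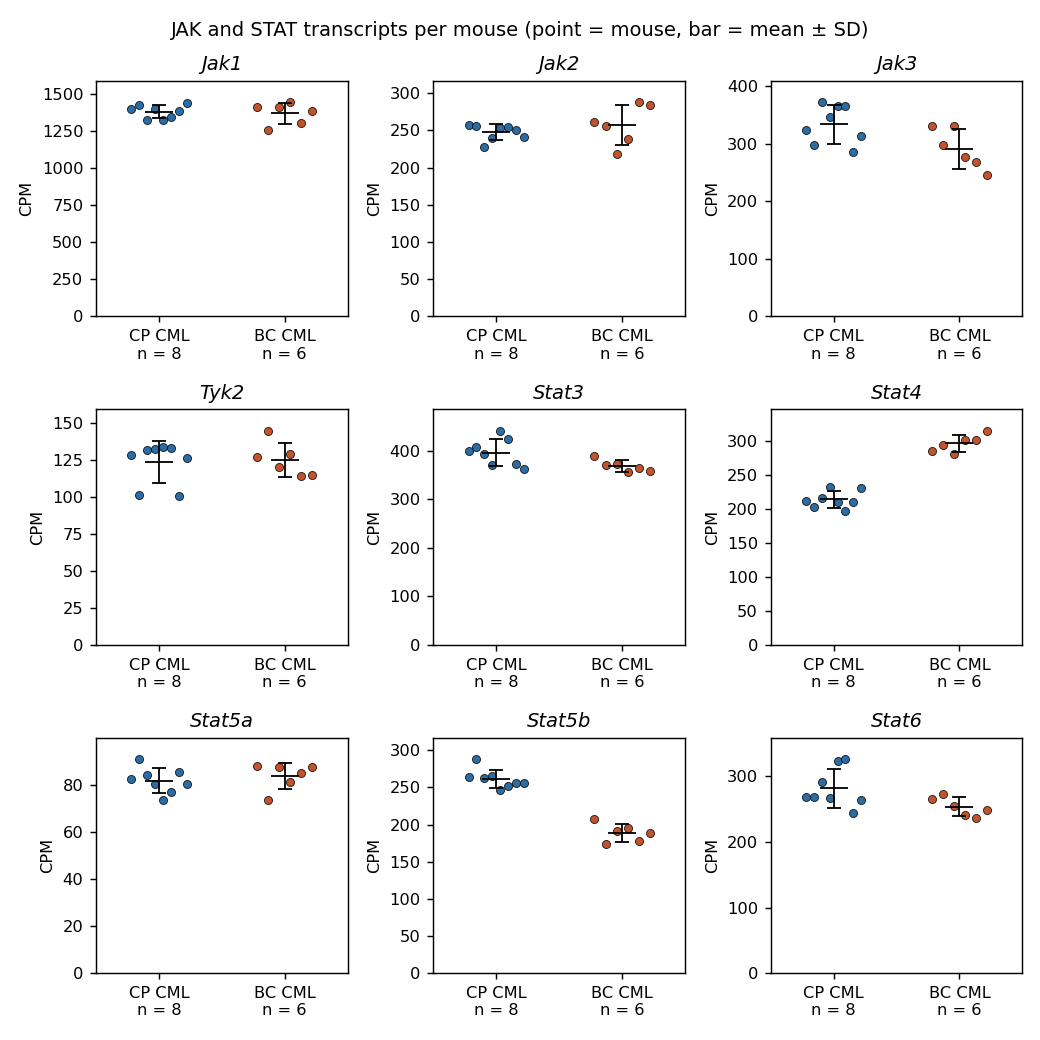
Level of each of the 9 genes in every mouse, in CPM on a linear axis from 0. Points are mice (8 CP CML, 6 BC CML), and bars are the mean ± SD. Stat4 in BC CML (279.9 to 314.3 CPM) lay above CP CML (197.3 to 231.4 CPM), and Stat5b in BC CML (173.6 to 207.2 CPM) lay below CP CML (247.1 to 287.8 CPM), while the other 7 genes overlapped.

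Among the kinases, Jak1 is the partner of most cytokine receptors in lymphocytes. It lies at chr4:101151974-101265282 on the minus strand. Its level was lowest at 1325, median 1394 and highest 1442 CPM in CP CML, and lowest at 1260, median 1401 and highest 1444 CPM in BC CML. The groups overlapped, with 2 BC CML mice below and 1 above the CP CML range, and the log2 fold change of -0.01 (SE 0.04, 95% interval -0.09 to 0.07) did not pass (edgeR adjusted p = 0.812). The interval held changes of under 0.10 on the log2 scale in either direction, the tightest bound among the kinases. The neighbouring gene Raver2, on the opposite strand, shares 397 bases of its span with Jak1 and held between 227 and 456 reads, against between 20220 and 27980 for Jak1.

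Jak2, which serves the receptors for IL-12, interferon gamma and the beta common family, lies at chr19:29251803-29313080 on the plus strand. Its level was lowest at 227.2, median 251.9 and highest 257.4 CPM in CP CML and 218.0, 258.7 and 287.6 CPM in BC CML. BC CML mice held both the lowest and the highest values, and the spread was wider there (SD 26.6 CPM, n = 6) than in CP CML (SD 10.5 CPM, n = 8). On the log2 scale BC CML differed by 0.06 (SE 0.05, 95% interval -0.06 to 0.17, edgeR adjusted p = 0.380).

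Jak3 binds the common gamma chain alone and is largely restricted to blood cells. It lies at chr8:71676383-71690577 on the plus strand. Its level was lowest at 285.1, median 335.3 and highest 371.6 CPM in CP CML, and 244.9, 287.2 and 330.8 CPM in BC CML. The groups overlapped, with 3 of 6 BC CML mice within the CP CML range and 3 below it. The log2 fold change was -0.20 (SE 0.08, 95% interval -0.36 to -0.03, edgeR adjusted p = 0.0331), a level 0.873 times that of CP CML. The call was lost without CP CML replicate 3, 4, 5 or 6 or BC CML replicate 4, 5 or 6, with log2 fold changes between -0.24 and -0.15 over the 14 fits that each left out a mouse, and the sign turned with the myeloid marker score as a covariate (log2 fold change 0.047, edgeR adjusted p = 0.761). The naive score also ended the call (-0.22, edgeR adjusted p = 0.626). Insl3, on the same strand, lies within the span of Jak3 and held between 31 and 72 reads.

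Tyk2, the kinase of the type I interferon and IL-12 receptors, lies at chr9:21104068-21131275 on the minus strand. Its level was lowest at 100.8, median 129.9 and highest 133.7 CPM in CP CML and 113.8, 123.6 and 144.6 CPM in BC CML. In CP CML 2 mice lay at 100.8 and 101.1 CPM, below all 6 BC CML mice, and the other 6 at 126.5 CPM or more. The difference on the log2 scale was 0.02 (SE 0.08, 95% interval -0.14 to 0.17, edgeR adjusted p = 0.862).

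Among the STAT factors, Stat4 carries the IL-12 signal toward interferon gamma production and type 1 responses. It lies at chr1:51987148-52107189 on the plus strand. Its level was lowest at 197.3, median 211.0 and highest 231.4 CPM in CP CML, and lowest at 279.9, median 297.7 and highest 314.3 CPM in BC CML. Every BC CML mouse lay above every CP CML mouse, and the gap between the groups exceeded the spread within either. The log2 fold change was 0.47 (SE 0.04, 95% interval 0.38 to 0.56, edgeR adjusted p = 1.84e-08), a level 1.39 times that of CP CML. It was called in all 14 fits that each left out a mouse (0.45 to 0.49) and with the myeloid score as a covariate (0.47, edgeR adjusted p = 6.81e-05), and lost the call with the naive score (0.37, edgeR adjusted p = 0.0848). In the annotation 24.1% of read-length windows of the Stat4 transcript are shared with the overlapping gene model Gm28177, which has no row in the counts table.

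Stat5b and Stat5a, which transmit IL-2, IL-7 and IL-15 signals for T cell survival and proliferation, are neighbours with Stat3 on chromosome 11. Stat5b lies at chr11:100780731-100850585 on the minus strand, Stat5a at chr11:100859351-100885169 on the plus strand and Stat3 at chr11:100886806-100939540 on the minus strand. In the spans listed with the counts, gaps of 8765 and 1636 bases separate the 3 genes, which together span 158810 bases. The longest Stat3 3′UTR in GENCODE runs past that listed span and into Stat5a on the opposite strand, so the listed gap depends on the annotation, and reads of this stretch could be split if the counting ignored strand. The level of Stat5b was lowest at 247.1, median 259.6 and highest 287.8 CPM in CP CML and 173.6, 190.5 and 207.2 CPM in BC CML. The highest BC CML mouse stood below the lowest CP CML mouse. Stat5b had a log2 fold change of -0.47 (SE 0.04, 95% interval -0.56 to -0.37, edgeR adjusted p = 4.30e-08), a level 0.724 times that of CP CML. It was called in all 14 fits that each left out a mouse (-0.49 to -0.44) and with the myeloid score (-0.41, edgeR adjusted p = 0.000226), and not with the naive score (-0.15, edgeR adjusted p = 0.463).

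Stat5a had a level lowest at 73.7, median 81.4 and highest 90.9 CPM in CP CML and 73.7, 86.3 and 88.1 CPM in BC CML. The groups overlapped throughout, and the log2 fold change was 0.04 (SE 0.05, 95% interval -0.07 to 0.14, edgeR adjusted p = 0.533). With the naive score, which is almost collinear with the group, as a covariate it passed (0.48, edgeR adjusted p = 0.0198). The paralogs share read-length windows, 2.75% of those of the Stat5a transcript and 5.12% of those of Stat5b, and reads from these could be split between them.

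Stat3, the factor of IL-6, IL-10 and IL-21, had a level lowest at 361.8, median 396.5 and highest 440.9 CPM in CP CML and 356.3, 367.6 and 389.4 CPM in BC CML. The groups overlapped, and the spread was smaller in BC CML (SD 12.2 CPM, n = 6) than in CP CML (SD 27.6 CPM, n = 8). The log2 fold change was -0.10 (SE 0.04, 95% interval -0.20 to -0.01, edgeR adjusted p = 0.0476), a level 0.930 times that of CP CML. The call was lost without CP CML replicate 1, 2, 3, 5 or 6 or BC CML replicate 2, 3, 4, 5 or 6 (log2 fold changes between -0.12 and -0.082 over all 14). It was also lost with RLE size factors (edgeR adjusted p = 0.0618), the likelihood ratio test (0.0616), no filter (0.0542), a filter that asked for over 1 CPM in 6 or more mice (0.0587), the myeloid score (0.429) and the naive score (0.402).

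Stat6, the factor of IL-4 and IL-13 in type 2 responses, lies at chr10:127642986-127660987 on the plus strand. Its level was lowest at 243.9, median 268.2 and highest 325.6 CPM in CP CML and 236.6, 252.1 and 273.4 CPM in BC CML. CP CML replicates 5 and 6, at 323.7 and 325.6 CPM, and replicate 3, at 291.8 CPM, lay above all BC CML mice, and the rest overlapped. Its log2 fold change was -0.15 (SE 0.06, 95% interval -0.28 to -0.02, edgeR adjusted p = 0.0404), a level 0.901 times that of CP CML. The call was lost without CP CML replicate 3, 5 or 6 or BC CML replicate 3, 4, 5 or 6 (-0.18 to -0.12 over all 14), and also with the filter at 1 CPM (edgeR adjusted p = 0.0503), the myeloid score (0.485) and the naive score (0.128). Nab2, on the opposite strand, overlaps Stat6 by 70 bases and held between 595 and 1179 reads. Whether the counting used strand was not given in the sources used here.

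**Figure D2:**
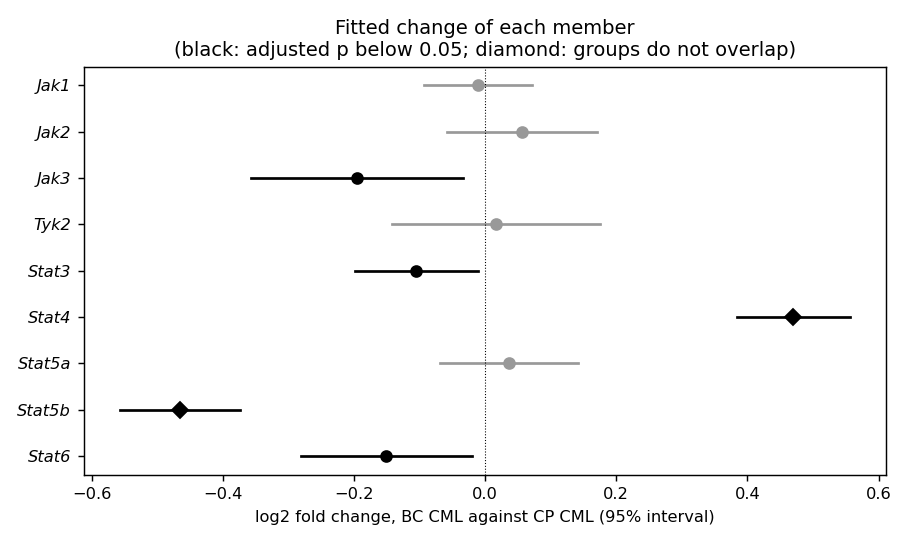
Log2 fold change (BC CML over CP CML) of each of the 9 genes on the horizontal axis, with bars for the 95% interval. Stat4 (0.47) and Stat5b (-0.47) lay farthest from 0, and the intervals of Jak1, Jak2, Tyk2 and Stat5a crossed 0.

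Levels were compared between genes per kilobase of the gene length deposited with the counts. In CP CML the order was Jak1 at 262.0 ± 8.47 CPM per kilobase (SD, n = 8), Stat3 at 88.2 ± 6.13, Stat6 at 74.4 ± 7.84, Jak3 at 67.7 ± 6.80, Stat4 at 58.9 ± 3.34, Jak2 at 49.3 ± 2.09, Stat5b at 48.2 ± 2.27, Tyk2 at 22.2 ± 2.53 and Stat5a at 12.7 ± 0.824. Neighbours in that order kept the same order in all 8 mice except Jak3 above Stat4, which held in 7 of 8 with means further apart than either SD, and Jak2 above Stat5b, which held in 5 of 8 with means closer than either SD. In BC CML the order was Jak1 at 260.0 ± 13.6 CPM per kilobase (SD, n = 6), Stat3 at 82.0 ± 2.70, Stat4 at 81.6 ± 3.43, Stat6 at 67.0 ± 3.76, Jak3 at 59.1 ± 7.04, Jak2 at 51.2 ± 5.30, Stat5b at 34.9 ± 2.23, Tyk2 at 22.4 ± 2.06 and Stat5a at 13.0 ± 0.876. Stat4 stood at the level of Stat3 there (3 of 6 mice had more Stat3), and Jak3 above Jak2 held in 4 of 6 mice. All other neighbours kept their order in all 6. The order depended on the length used. Per kilobase of the longest GENCODE transcript, an alternative added after seeing the data, CP CML ran Jak1, Jak3, Stat6, Stat4, Stat3, Stat5b, Jak2, Tyk2 and Stat5a, and BC CML ran Jak1, Stat4, Jak3, Stat6, Stat3, Jak2, Stat5b, Tyk2 and Stat5a. Jak1 was highest and Stat5a lowest with either length, and Stat4 moved up in BC CML with either, from rank 5 to 3 with the deposited lengths and from rank 4 to 2 with the transcript lengths.

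The shares of the summed level per kilobase are given without a test and with the deposited lengths. Their size depended on the length used. With the longest transcripts Stat4 made up 25.4% of the STAT sum in CP CML and 34.9% in BC CML, and Stat3 23.2% and 21.4%. Groups did not overlap for 2 of the 5 factors and overlapped for all 4 kinases. Stat4 made up 20.9 ± 1.68% of the STAT sum in CP CML (n = 8, 18.5 to 23.3%) and 29.3 ± 1.46% in BC CML (n = 6, 27.3 to 30.9%). Stat5b made up 17.1 ± 1.08% in CP CML (15.3 to 18.6%) and 12.5 ± 0.688% in BC CML (11.5 to 13.3%). Neither overlapped between the groups. Stat3 (31.2 ± 1.20% against 29.4 ± 0.693%), Stat6 (26.3 ± 1.85% against 24.1 ± 1.10%) and Stat5a (4.52 ± 0.398% against 4.68 ± 0.306%) overlapped. Among the kinases, Jak1 made up 65.3 ± 1.99% and 66.2 ± 1.80%, Jak3 16.9 ± 1.66% and 15.0 ± 1.59%, Jak2 12.3 ± 0.545% and 13.1 ± 1.60% and Tyk2 5.52 ± 0.591% and 5.72 ± 0.604%, and all 4 overlapped. Without BC CML replicate 2 the difference in the Tyk2 share changed sign, from 0.197 to -0.039 points.

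**Figure D3:**
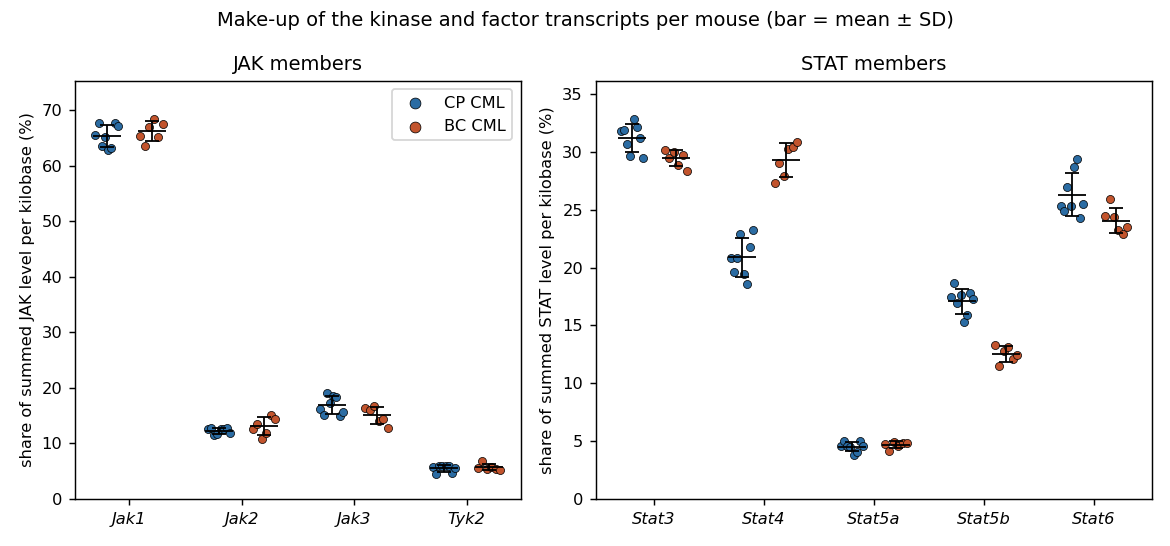
Share (percent) of each kinase in the summed level per kilobase of the 4 JAK kinases, and of each factor in that of the 5 STAT factors, per mouse, with mean ± SD. Stat4 moved from 20.9% to 29.3% and Stat5b from 17.1% to 12.5%, and the kinases overlapped.

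Ratios within a mouse do not depend on library scaling, and 3 of them were tested by permutation (exact, two-sided, all 3003 splits of the 14 mice), in which the smallest possible p is 0.000666, adjusted over the 3 ratios. The ratio of Stat5a to Stat5b, the paralogs that bind the same sites, ran from 0.252 to 0.281 in CP CML (median 0.264) and from 0.350 to 0.403 in BC CML (median 0.372). The size of each ratio depended on the length used. With the longest transcripts the medians of this ratio were 0.413 in CP CML and 0.581 in BC CML. The groups did not overlap, and the mean log2 ratio differed by 0.50 (exact permutation p = 0.000666, the smallest possible, adjusted 0.000999). Since Stat5a changed by 0.04 and Stat5b by -0.47 on the log2 scale, this restates the fall of Stat5b and is not separate evidence. The ratio of Stat6 to Stat4 ran from 1.10 to 1.58 in CP CML (median 1.24) and from 0.753 to 0.895 in BC CML (median 0.820) and did not overlap. Which of the 2 had the higher level depended on the length used. With the deposited lengths Stat6 was the higher in all 8 CP CML mice, and with the longest transcripts in 5 of 8, while Stat4 was the higher in all 6 BC CML mice with either. The log2 ratio differed by -0.62 (exact permutation p = 0.000666, adjusted 0.000999). It likewise restates the changes of Stat6 (-0.15) and Stat4 (0.47) given above. The ratio of Jak1 to Jak3, the pair bound by common gamma chain receptors, ran from 3.33 to 4.55 (median 3.91) and from 3.95 to 5.30 (median 4.26), with overlap and a log2 difference of 0.19 (exact permutation p = 0.0866, adjusted 0.0866), which does not show that the ratios were alike.

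**Figure D4:**
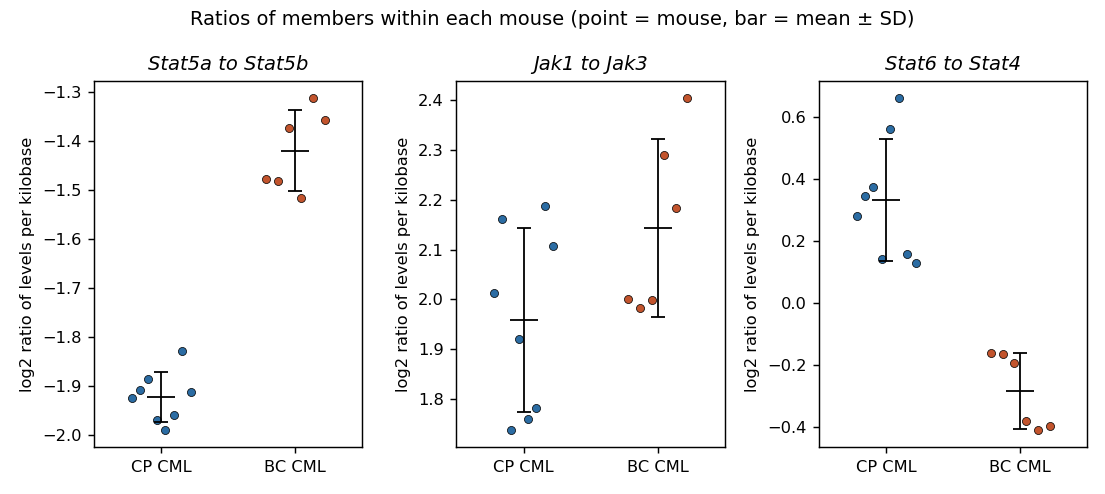
Ratio of Stat5a to Stat5b, Jak1 to Jak3 and Stat6 to Stat4 per mouse, each from levels per kilobase, on a log2 axis, with the mean and SD of each group. Stat5a to Stat5b lay higher and Stat6 to Stat4 lower in every BC CML mouse, and Jak1 to Jak3 overlapped.

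Genes whose levels varied most like those of Jak3 and Stat4, the kinase and the factor with the largest change, were sought within the groups over the 14 mice and 9160 genes. For Jak3 they were Tars2 (Pearson r of 0.95), Ccdc22 (0.94) and Zfp692 (0.93), and for Stat4 they were Naa20 (0.81), Calhm2 (0.81) and Rab2b (0.79). These values describe mice of shared groups and are given without a test. Each is among the highest of 9160 values over 14 mice, and high values can arise by chance among so many.

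The other genes of the pathway were taken from lists by role, and their counts use edgeR's adjusted p of 0.05, which 32.6% of all tested genes passed higher and 32.7% lower. With the naive score as a covariate the number of higher genes in each of the 11 lists was between 0 and 3, and over all genes 982 were higher and 575 lower.

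Of 10 common gamma chain family receptor genes, 5 rose, 3 fell and 2 did not pass (median log2 fold change 0.15). Il2rb, the chain shared by IL-2 and IL-15, rose from 518.2 to 953.7 CPM (0.88, SE 0.07, edgeR adjusted p = 2.97e-09) and Il15ra, which presents IL-15, rose by a log2 fold change of 1.09. Il7r, the receptor of naive and memory T cell survival, fell from 1107 to 551.9 CPM (SE 0.15 on the log2 scale, edgeR adjusted p = 3.01e-05), and it is also 1 of the 7 naive markers. Of 9 tested genes in the gp130 and IL-12 family list, 4 rose, 2 fell and 3 did not pass (median 0.03), 1 of the last being Ebi3, a secreted subunit of IL-27 rather than a receptor. Il12rb2, the inducible chain of the IL-12 receptor that leads to STAT4, rose from 16.2 to 88.8 CPM (log2 fold change 2.46, SE 0.09, edgeR adjusted p = 1.17e-12), Lifr rose by 2.33 on the log2 scale, and Il6ra, the IL-6 binding chain, fell from 201.9 to 68.9 CPM (-1.55, SE 0.08, edgeR adjusted p = 5.00e-11).

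Interferon and IL-10 family receptors gave 4 higher, 1 lower and 3 not passed of 8 tested (median 0.27), with Il10rb (0.85), Ifnar1 (0.64) and Ifnar2 (0.45) higher on the log2 scale. Beta common and homodimeric receptors, which serve myeloid cytokines, gave 5 higher and 1 lower of 6 tested (median 1.16), with Csf3r (2.98), Csf2rb (1.21) and Csf2ra (from 7.26 to 15.8 CPM) higher. Csf3r stood at 2.35 CPM in CP CML and 18.3 CPM in BC CML, beside the myeloid marker sum of 176 to 563 against 964 to 1719 CPM. With the myeloid score as a covariate, 2 of these receptor genes were higher and 0 lower, and without a filter on low counts 2 were lower.

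Among the inhibitors, 6 of 8 SOCS and CISH genes rose and 2 fell (median 0.57). Cish, which STAT5 induces and which dampens signaling from cytokine receptors, rose from 39.9 to 146.7 CPM (1.88, SE 0.10, edgeR adjusted p = 1.03e-10), Socs2 rose from 11.7 to 21.0 CPM and Socs3, the inhibitor of gp130 signals, fell from 449.5 to 265.8 CPM (-0.76, SE 0.11, edgeR adjusted p = 1.81e-05). PIAS proteins, which attach SUMO and restrain STAT DNA binding, gave 2 higher, 1 lower and 1 not passed of 4 (median 0.03). Pias3 rose by 0.57 and Pias2 by 0.14 on the log2 scale, and Pias1 fell by 0.36 on the log2 scale. Phosphatases and adaptors that act on JAK or STAT gave 8 higher, 2 lower and 1 not passed of 11 tested (median 0.43), with the tyrosine phosphatase gene Ptpn6 from 256.7 to 492.0 CPM, Sh2b3 (0.92) and Stam2 (0.82) higher. With the myeloid score as a covariate, 1 PIAS gene was higher and 1 gene of the phosphatase and adaptor list lower, and without BC CML replicate 2 the PIAS genes lower numbered 2. The part of the NK marker shift in these lists was not tested.

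**Figure D5:**
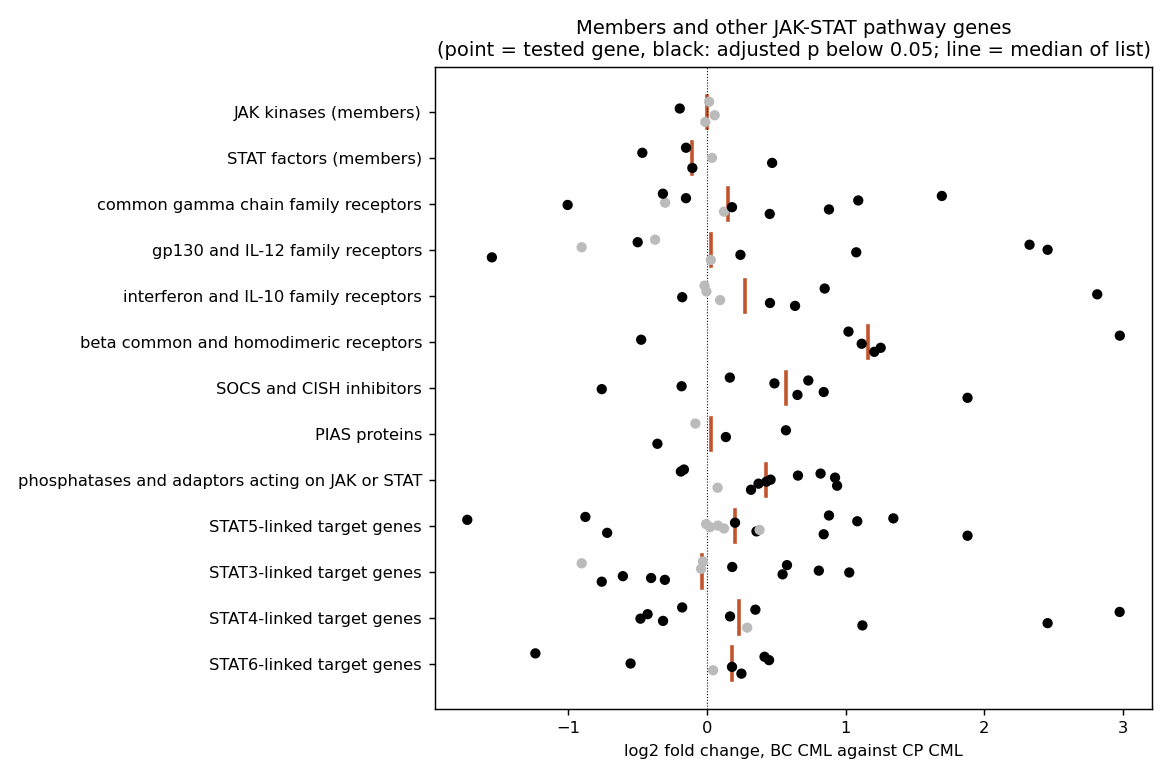
Log2 fold change (BC CML over CP CML) of each tested gene in the lists of the JAK-STAT pathway, 1 row per list, 1 point per gene, black where it passed an adjusted p of 0.05 and grey where it did not, with a line at the median of the list. The top 2 rows hold the 9 genes described above. Median log2 fold changes ran from -0.105 for the 5 STAT factors to 1.16 for beta common and homodimeric receptors.

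Genes linked to each factor in the literature were counted in the same way. Of 15 STAT5-linked genes, 7 rose, 3 fell and 5 did not pass (median 0.20), with Cish and Id2 (log2 fold change 1.34) higher and Foxp3, the master factor of regulatory T cells, lower (-1.73, from 94.2 to 28.5 CPM). Of 12 STAT3-linked genes, 5 rose, 4 fell and 3 did not pass (median -0.04), with Socs3 (-0.76) and Batf (-0.61) lower and Bcl6 (0.58) higher. With the myeloid score as a covariate 2 STAT3-linked genes were higher. Of 10 STAT4-linked genes, 5 rose, 4 fell and 1 did not pass (median 0.23), with Il12rb2 (2.46) and Tbx21 (from 38.5 to 83.8 CPM) higher and Il18rap (-0.48) lower. The 4 lower genes became 2 without BC CML replicate 6 and 0 with the myeloid score. Of 7 STAT6-linked genes, 4 rose, 2 fell and 1 did not pass (median 0.18), with Xbp1 (0.42), Gata3 (0.25) and Il4ra (0.18) higher, and with the myeloid score 2 were higher and 1 lower. Several named genes stand in more than 1 list. Cish, Socs2 and Il2rb are also STAT5-linked, Socs3 STAT3-linked, Il12rb2 STAT4-linked and Il4ra STAT6-linked, beside their receptor or inhibitor lists, and Id2 and Tbx21 are also effector and memory markers.

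The promoters (250 bases before to 50 after each start, RefSeq GRCm38.p6) of the 9 genes and of the listed genes were searched for the gamma-activated site TTCNNNGAA, which reads the same on both strands and for the same site with 1 more base in its middle, the spacing that STAT6 also binds. Of 32851 promoters, 8.3% held the first and 6.95% the second, and counted per gene, since a gene can have several promoters, 9.55% and 8.01% of 27025 genes held them. Neither occurred in the 12 promoters of the 9 genes. Among the SOCS and CISH genes with a promoter entry, 2 of 4 held TTCNNNGAA, and so did 2 of 10 STAT5-linked, 2 of 11 STAT3-linked, 3 of 9 STAT4-linked and 1 of 7 STAT6-linked genes. The longer spacing occurred in 0, 1, 1, 2 and 1 genes of these lists in the same order. The windows of 3 genes with large changes are shown with the motif in capitals.
Cish, chr9:107296649-107296677, plus strand: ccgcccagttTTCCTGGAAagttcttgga
Cish, overlapping window, chr9:107296660-107296688, plus strand: tcctggaaagTTCTTGGAAatctgtcaaa
Socs3, chr11:117969502-117969530, minus strand: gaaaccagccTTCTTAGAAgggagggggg
Il12rb2, chr6:67376293-67376321, minus strand: gttcccttttTTCTCAGAAccgcactaag
Cish held 2 motifs, of which the first began at the annotated start and the other 11 bases after it. The motif of Socs3 lay 154 bases upstream and that of Il12rb2 123 bases upstream. A motif is a description of letters, and binding was not measured.

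Genes of the CD4 and CD8 coreceptors, named after their values were seen, did not all differ. Cd4 had between 352 and 434 CPM in CP CML and between 191 and 295 in BC CML, and Cd8a between 612 and 760 and between 1071 and 1478. Neither overlapped. Cd8b1, the other CD8 chain, had between 388.3 and 466.3 CPM (median 451.3) in CP CML and between 413.8 and 550.4 CPM (median 452.1) in BC CML, and the groups overlapped. The part of the Cd4 and Cd8a values in the levels of Stat4 and Stat5b was not tested.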

How the data were processed

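RNA-seq of sorted spleen T cells from 14 mice was analysed. The authors trimmed reads with Trimmomatic and FASTP, aligned them to mm10 with STAR 2.6.0, counted them per gene with HTSeq 0.11.1 and deposited raw counts of 24091 genes without normalization. The annotation and strand setting of the counting were not given in the sources used here.

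Counts were filtered by filterByExpr, normalized by TMM and tested in R 4.3.3 with edgeR 4.0.16 (limma 3.58.1) by the quasi-likelihood test with Benjamini-Hochberg adjustment over 12248 genes. Levels between genes used CPM divided by the deposited gene length in kilobases. Fits were checked on simulated data. Library totals were between 15703702 and 19914531 counted reads, and the 9 members had between 1157 and 27980 reads per library. Pairs of replicates differed by more than counting noise (chi-square per degree of freedom 2.66 to 18.03), so each was counted as a sample. Nothing in the labels pairs mice across groups. Named genes were the 9 members, Mir142, up to 3 called genes per pathway list, taken by absolute log2 fold change among genes whose average log2 CPM reached 3, and, under the same minimum, the 3 genes that correlated best within groups with the most changed kinase and factor, while Cd4, Cd8a and Cd8b1 were named after their values were seen. Alternatives were other normalizations, tests (likelihood ratio, DESeq2 1.42.0), filters, a replicate block, marker scores as covariates and leaving out each mouse. The members and lists were chosen with earlier results of these data known. A withheld item of the pathway is not reported here.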

Additional observations from a re-analysis of the deposited data

Results flagged for a closer look

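Dixon's test at its 95% critical value was applied to 42 group values, of which chance alone would mark about 2.1, and 2 stood out. Stat5b in CP CML replicate 2 was highest at 287.8 CPM, with the next mouse at 265.5 CPM, a gap of 0.547 of the range against a critical value of 0.526 for 8 mice. Without that mouse Stat5b still passed. The share of Tyk2 in the JAK sum of BC CML replicate 2 was highest at 6.9%, with the next mouse at 5.79%, a gap of 0.692 of the range against 0.625 for 6 mice. Without that mouse the mean share in BC CML minus that in CP CML was -0.039 points, where it was 0.197 with all mice, so the direction rested on it.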

How the results depend on the processing

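Stat4 and Stat5b kept their direction under every alternative and lost their calls only with the naive score as a covariate, which is almost collinear with the group over the 14 mice (r = -0.954) (NK score r = 0.977, effector score r = 0.948, myeloid score r = 0.810). With that score Stat4 stood at 0.37 (edgeR adjusted p = 0.0848), Stat5b at -0.15 (0.463), Stat5a passed at 0.48 (0.0198), Jak3 stood at -0.22 (0.626), Stat3 at -0.20 (0.402) and Stat6 at -0.45 (0.128), and with the myeloid score Jak3 stood at 0.047 (0.761), Stat3 at -0.083 (0.429) and Stat6 at -0.10 (0.485). Stat3 missed the threshold with DESeq2's RLE size factors in edgeR (-0.10, 0.0618), the likelihood ratio test (-0.10, 0.0616), no filter (-0.11, 0.0542) and more than 1 CPM in at least 6 samples (-0.10, 0.0587), where Stat6 also did (-0.14, 0.0503). The number of lower members, 4, became 2 with that filter, 1 with the myeloid and 0 with the naive score, and ran from 1 to 4 over the fits without each mouse. Over all genes the main fit called 3987 higher and 3999 lower, the myeloid score 2490 and 2495 and the naive score 982 and 575. The cause was not tested. Leaving out single mice, Jak3 ran from -0.24 to -0.15, Stat3 from -0.12 to -0.082 and Stat6 from -0.18 to -0.12, PIAS genes lower from 1 to 2 (2 without BC CML replicate 2) and STAT4-linked genes lower from 2 to 4 (2 without BC CML replicate 6).

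With the myeloid score, genes higher numbered 1 for PIAS, 2 for STAT3-linked, 2 for STAT6-linked and 2 for beta common lists, and genes lower 0 for STAT4-linked, 1 for STAT6-linked, 0 for beta common and 1 for phosphatase lists. With the naive score, genes higher numbered 1 for PIAS, 2 for SOCS, 0 for STAT3-linked, 2 for STAT4-linked, 3 for STAT5-linked, 0 for STAT6-linked, 0 for beta common, 0 for common gamma chain, 1 for gp130, 2 for interferon and 3 for phosphatase lists, and genes lower 0 for PIAS, 0 for SOCS, 1 for STAT3-linked, 1 for STAT4-linked, 0 for STAT6-linked, 0 for beta common, 0 for common gamma chain, 1 for gp130, 0 for interferon and 1 for phosphatase lists. Without a filter, 2 beta common genes were lower.

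With the longest transcript as length, added after seeing the data, the differences in shares between groups kept their direction. The differences in log2 ratios could not change, since a length is the same in every mouse and cancels from them.

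The replicate numbers mark different mice, whose deviations correlated between -0.273 and 0.356 for equal numbers, and 2 of 6 BC CML mice correlated best with their own number. A replicate block over 12 mice changed no call among the 9 genes, with Stat4 at 0.48 (edgeR adjusted p = 2.49e-05), Stat5b at -0.48 (4.30e-05), Jak3 at -0.25 (0.0246), Stat3 at -0.14 (0.0248) and Stat6 at -0.19 (0.0306), and called 3649 genes higher and 3631 lower, against 3814 and 3823 in the same 12 mice without it, a fit added after seeing the data.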

Other observations

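In CP CML the 4 highest mice for Jak3, replicates 3, 4, 5 and 6 (371.6, 346.5, 366.0 and 366.0 CPM), were also the 4 highest for Tyk2 (131.8, 132.4, 133.7 and 133.2 CPM). This was noticed after the values were seen. These 4 mice carry the lowest mouse numbers of their group, and whether the numbers mark a batch is not given.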
